A study of Mus musculus with 40 samples.

Results

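Selective and broad blockade of TGF-β were compared by the RNA of CT26 tumors, without anti-PD-1. The 10 tumors of mice treated with anti-GARP:TGF-β1, 5 with the WT and 5 with the FcD antibody, were pooled and set against the 5 tumors of mice treated with anti-TGF-β. The members are all libraries that carry these 3 tags, 15 of the 40 in the series. All were BALB/c mice that had received 1000000 cells of CT26, a single colon carcinoma line from BALB/c mice, under the skin. The mAbs were given intraperitoneally on days 6, 9 and 12, and the tumors were collected on day 13. Anti-GARP:TGF-β1 is clone 58A2, which binds the complex of GARP with TGF-β1 and blocks the release of active TGF-β1 by regulatory T cells (Tregs). Its WT form is a mouse IgG2a that binds Fcγ receptors, and its FcD (Fc-dead) form does not bind them. Anti-TGF-β is clone 1D11, which neutralizes all isoforms of the cytokine whatever their source. The isotype control is motavizumab, and a parallel set of mice received the same 3 antibodies with anti-PD-1 FcSilent. Each library came from a fragment of 1 mouse's tumor, so the spread within a group is the spread between mice, and mice are named here by their library number.

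TGF-β is secreted in a latent form, in which the cytokine is held inside its own propeptide. Activated Tregs display latent TGF-β1 on the surface protein GARP, the product of Lrrc32, and the integrin αvβ8 frees the active cytokine from it. Stromal and tumor cells store latent TGF-β in the matrix through the latent TGF-β binding proteins, a pool without GARP. Active TGF-β signals through its receptors and the Smad proteins, restrains T cells and induces matrix genes in fibroblasts.

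The reads assigned to genes ranged from 11931730 to 20680548 per tumor. Totals, the mitochondrial share and the number of genes detected did not separate the groups (exact permutation test, 2-sided, over 3003 regroupings, p = 0.438, 0.285 and 0.791). A chi-square check for libraries deposited more than once found none among the 30 pairs within groups. Krt20, an intestinal keratin, stood at 35.0 to 179 CPM (read counts scaled to the library size), while Epcam, an epithelial adhesion protein, reached only 2.76 CPM. Vim, the mesenchymal filament vimentin, stood at 3736 to 6235 CPM in these tumors. The Y-linked gene Ddx3y had 91 to 428 reads in each of libraries 41 to 60 and 0 in each of libraries 61 to 80, where Xist had 784 to 12701 reads. These genes were chosen after their values were seen. Both parts of the libraries hold 5 anti-GARP:TGF-β1 mice, against 3 anti-TGF-β mice in the first (43, 48 and 59) and 2 in the second (72 and 79).

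Single tumors stood apart, foremost 1 of the anti-TGF-β group. Mouse 48 correlated less with the other 14 tumors (median r = 0.949) than they did among themselves (0.977 to 0.986). It held the highest value of the 15 mice in 26.3% of the genes tested and the lowest in 20.8%. Its Ddx3y level was 33.4 CPM, against 8.29 to 14.9 CPM in the other 7 mice of its part. Ptprc, the leukocyte marker CD45, stood at 371 CPM in it and at 63.0 to 200 CPM in the other 14 mice. Genes of fat cells, red cells and neutrophils were also highest in this tumor, as described below. Gene lists and the main genes are therefore also given without mouse 48. Mouse 73 of the WT group also often lay at an end, with the highest value of the 15 mice in 17.4% of the genes and the lowest in 16.41%, against at most 7.74% and 8.06% in the remaining 13 mice. Its median correlation with the other tumors (0.978) lay within their range.

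No gene passed the threshold between the 2 kinds of blockade after correction for multiple tests. Of 14760 genes tested with edgeR's quasi-likelihood test, 0 passed a Benjamini-Hochberg adjusted p of 0.05 (0% of the genes tested). At an unadjusted p under 0.05, 231 genes (1.57%) had a higher and 408 (2.76%) a lower estimate with anti-GARP:TGF-β1. Without mouse 48 these numbers were 120 (0.806%) and 138 (0.927%) of 14887 genes, and without mouse 73 they were 142 and 291. The counts of list members at p under 0.05 below stand against these shares of all genes. Counts by the direction of the estimate alone stand against 44.6% higher and 55.4% lower estimates over all genes (51.3% and 48.7% without mouse 48). DESeq2, which here and below was run on all 31326 genes with a count and not on the 14760, called 1 gene, Nts, and had 274 higher and 555 lower genes at an unadjusted p under 0.05. Within libraries 41 to 60, 53 genes (0.356%) were higher and 156 (1.05%) lower at p under 0.05, and within libraries 61 to 80 the balance was the other way, with 435 (2.87%) higher and 280 (1.84%) lower. In the latter part edgeR called 1 gene, Acsbg1. Log2 fold changes below are anti-GARP:TGF-β1 minus anti-TGF-β with their SE, and their median over all genes was -0.02. Differences within libraries 41 to 60 or 61 to 80 are differences of mean log2 CPM, with no test. By these differences, 24 of the 45 gene lists described below had medians of opposite sign in the 2 parts, 12 in each direction. The term p under 0.05 refers to the edgeR p without adjustment. Nts had the smallest adjusted p (0.212), followed by Cxcr2 (0.597). Since no adjusted p passed, higher and lower refer to estimates.

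Nts, which encodes the gut and brain peptide neurotensin, had the smallest p. Its levels in the 5 anti-TGF-β mice were 0.571, 5.77, 1.52, 2.09 and 0.980 CPM, in the order 43, 48, 59, 72 and 79. In the 10 anti-GARP:TGF-β1 mice they ran from 0 over a median of 0.339 to 0.797 CPM, so that 4 of the 5 anti-TGF-β mice lay above all 10. The difference was -2.52 ± 0.501 (SE) with an adjusted p of 0.212 by edgeR and 0.0350 by DESeq2. Without mouse 48 it was -1.77, still with p under 0.05. In isotype control tumors Nts stood at 0.309 to 0.672 CPM, within the range of the anti-GARP:TGF-β1 mice. These are low levels, and mouse 70 of the FcD group had no read of it. Nts lies at chr10:102481756-102490486 (GRCm38).

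Complete separation of the groups was rare. In 3 genes (0.0203% of those tested) all 5 anti-TGF-β mice lay above all 10 anti-GARP:TGF-β1 mice, and in 0 (0%) all lay below. The 3 genes are Gpr180 and the unnamed loci RP23-305A10.3 and RP24-298J16.4, which fall outside the rule for named genes and were chosen after their values were seen. Gpr180, a membrane protein at chr14:118137158-118163261, stood at 22.8, 23.7, 23.02, 24.2 and 22.1 CPM with anti-TGF-β. With anti-GARP:TGF-β1 it ran from 18.5 over 19.9 to 21.9 CPM. The gap was small (-0.20 ± 0.067), and the isotype tumors, at 18.6 to 24.0 CPM, spanned both groups. RP23-305A10.3 stood at 5.82 to 7.33 CPM with anti-TGF-β and at 4.33 to 5.58 CPM with anti-GARP:TGF-β1.

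None of the 3 TGF-β genes had p under 0.05. Per kilobase of exon, Tgfb1 was the most abundant isoform, at 19.0 CPM with anti-GARP:TGF-β1 and 18.6 with anti-TGF-β. Tgfb3 followed at 9.40 and 8.85, and Tgfb2 was the lowest at 0.131 and 0.168. The log2 differences were 0.03 ± 0.14 for Tgfb1, 0.09 ± 0.14 for Tgfb3 and -0.37 ± 0.29 for Tgfb2. The sign for Tgfb1 turned when mouse 59 or mouse 41 was left out.

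Lrrc32 encodes GARP, the target of the selective antibody. The study describes GARP not only on Tregs but also on platelets and, in human tissue, in vessel walls. Lrrc32 stood at 4.24, 14.4, 4.03, 3.03 and 5.70 CPM in the anti-TGF-β mice and at 3.09 to 9.28 CPM (median 3.94) in the anti-GARP:TGF-β1 mice. Of the anti-TGF-β mice, mouse 48 lay above this range, mouse 72 just below it and the other 3 within it, and the difference moved from -0.52 to 0.04 without it. Itgav and Itgb8, the chains of the integrin that frees TGF-β from GARP, differed by -0.06 ± 0.13 and -0.23 ± 0.35. In the list of ligands and activating proteins, 19 genes were tested, 2 were higher and 1 lower at p under 0.05 (against 1.57% and 2.76% of all genes), and the median was -0.06 (0 genes and 0.04 without mouse 48). The lower gene was Fbn2, the matrix protein fibrillin-2 (-2.33 ± 1.06, and -0.72 without mouse 48, then with p above 0.05), which had 2.11 CPM in mouse 48 and at most 0.823 CPM in the other 14 mice. The higher genes were Ltbp3 and Ltbp4, which anchor latent TGF-β in the matrix, at 0.24 ± 0.11 and 0.32 ± 0.14. Ltbp4 stood at 461, 256, 410, 349 and 314 CPM with anti-TGF-β and at 364 to 504 CPM (median 441) with anti-GARP:TGF-β1. Mouse 48 held the lowest value, and neither gene had p under 0.05 without it.

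Genes that report TGF-β signaling showed small differences in either direction. Among receptors, Smads and feedback inhibitors 1 of 19 genes was higher and 0 lower at p under 0.05 (median -0.02, and 0.06 without mouse 48), and among immediate targets 1 of 23 was higher and 0 lower (median -0.02, then 0.08). The gene was Tgif1, a repressor of Smad-driven transcription that stood in both lists (0.24 ± 0.11, and 0.18 without mouse 48, then with p above 0.05). Its difference was -0.02 within libraries 41 to 60 and 0.53 within libraries 61 to 80. Smad7, the inhibitory Smad that TGF-β induces, was 29.7, 21.5, 31.1, 25.3 and 21.4 CPM with anti-TGF-β and 24.8 to 35.1 CPM (median 31.0) with anti-GARP:TGF-β1. Its difference was 0.22 ± 0.12, and 0.17 without mouse 48. Skil, Pmepa1 and Tgfbi, other induced genes, differed by -0.05, -0.01 and -0.06, each with p above 0.05, and each turned in sign when 1 or more mice were left out. Ctgf, a matrix-associated target, differed by 0.34 ± 0.25 and by 0.63 without mouse 48, where it was the 1 immediate target of 23 that was higher at p under 0.05 (0 were lower). In BMP and activin family genes 0 of 23 were higher and 1 lower, Gdf10 (-2.80), whose value rested on 6.16 CPM in mouse 48.

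Type I interferon-stimulated genes (ISGs) had lower estimates with anti-GARP:TGF-β1 throughout. Their products, made when interferon α or β binds its receptor, block viral replication or sense viral RNA. All 23 ISGs tested were lower, 17 of them at p under 0.05 and 0 at an adjusted p, against 55.4% and 2.76% of all genes. Their median was -0.39, against -0.02 for all genes. Without mouse 48 the numbers were 8 of 23 and -0.33, and all 23 estimates stayed below 0.

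The shared control element of such genes is the interferon-stimulated response element, which STAT2 and IRF9 bind as parts of a complex. A simple form of it, GAAA, any 2 bases and GAAA again on either strand, was searched in the 250 bases before each RefSeq start site (GRCm38.p6). It lay in 9 of the 18 ISGs with a promoter in the table (50%) and in 2.98% of 32851 promoters of all genes. Since such genes share this element, these shares describe the list and not the difference between the antibodies. The promoters of Mx1, Mx2, Oas2, Usp18 and Zbp1 were not matched. The windows below are examples of ISGs that hold the motif, with the chemokine Cxcl10, so they do not stand for the whole list. Ifit3 and Oas1a were chosen for this after their values were seen. Of the 4 ISGs with the smallest p, Isg15 and Ifit1 are shown, Mx2 was not matched and Ifi44 held no match. Each window is read along the strand of its gene with the motif in capitals, and a motif on the other strand appears as its complement, TTTC, any 2 bases and TTTC.
Isg15, chr4:156200856-156200915, minus strand: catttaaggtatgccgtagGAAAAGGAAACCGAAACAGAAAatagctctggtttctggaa
Ifit1, chr19:34640770-34640829, plus strand: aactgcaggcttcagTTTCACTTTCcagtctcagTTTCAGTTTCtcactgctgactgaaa
Ifit3, chr19:34583365-34583424, plus strand: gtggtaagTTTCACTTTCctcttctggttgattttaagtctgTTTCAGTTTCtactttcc
Oas1a, chr5:120907526-120907585, minus strand: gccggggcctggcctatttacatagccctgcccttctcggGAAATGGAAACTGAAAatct
Cxcl10, chr5:92349068-92349127, minus strand: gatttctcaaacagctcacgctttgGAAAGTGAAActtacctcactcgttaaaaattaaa
The Isg15 window holds 3 overlapping matches, the Ifit1, Ifit3 and Oas1a windows 2 each and the Cxcl10 window 1. The Ifit1 matches also lie upstream of Ifit1bl2, a related gene on the opposite strand, so they are not independent of it. A match describes the letters of these windows and not the binding of a factor.

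Among the ISGs, Ifit1, which binds viral RNA, stood at 53.5, 80.2, 45.3, 70.1 and 72.8 CPM in the 5 anti-TGF-β mice. In the anti-GARP:TGF-β1 mice it ran from 36.6 over 47.0 to 51.2 CPM. Thus 4 of 5 anti-TGF-β tumors lay above all 10 others, and the difference was -0.51 ± 0.16 (adjusted p = 0.959). Isg15, a ubiquitin-like antiviral protein, stood at 55.8, 88.6, 67.5, 110 and 94.7 CPM with anti-TGF-β and at 48.3 to 80.6 CPM (median 59.7) with anti-GARP:TGF-β1. Here 3 anti-TGF-β tumors lay above all others and mice 43 and 59 lay within them (-0.42 ± 0.14). Mx2, a dynamin-like antiviral GTPase, had the smallest p of the list and was -0.44 both with and without mouse 48. Its levels were 12.5, 16.2, 14.1, 20.9 and 18.1 CPM with anti-TGF-β and 9.58 to 14.4 CPM (median 12.2) with anti-GARP:TGF-β1. Ifi44, an interferon-induced protein, differed by -0.56 ± 0.20. Outside the list, Ifit1bl2 (-1.07 ± 0.27) and Slfn4, a Schlafen family gene of myeloid cells (-1.02 ± 0.29), were among the 10 lower genes with the smallest p, as were Trim30b (-1.13) and Ccdc134 (-0.26). Ifit3 and Oas1a, whose windows are shown above, differed by -0.39 and -0.36, and Ifit3 had p above 0.05 without mouse 48.

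**Figure D1:**
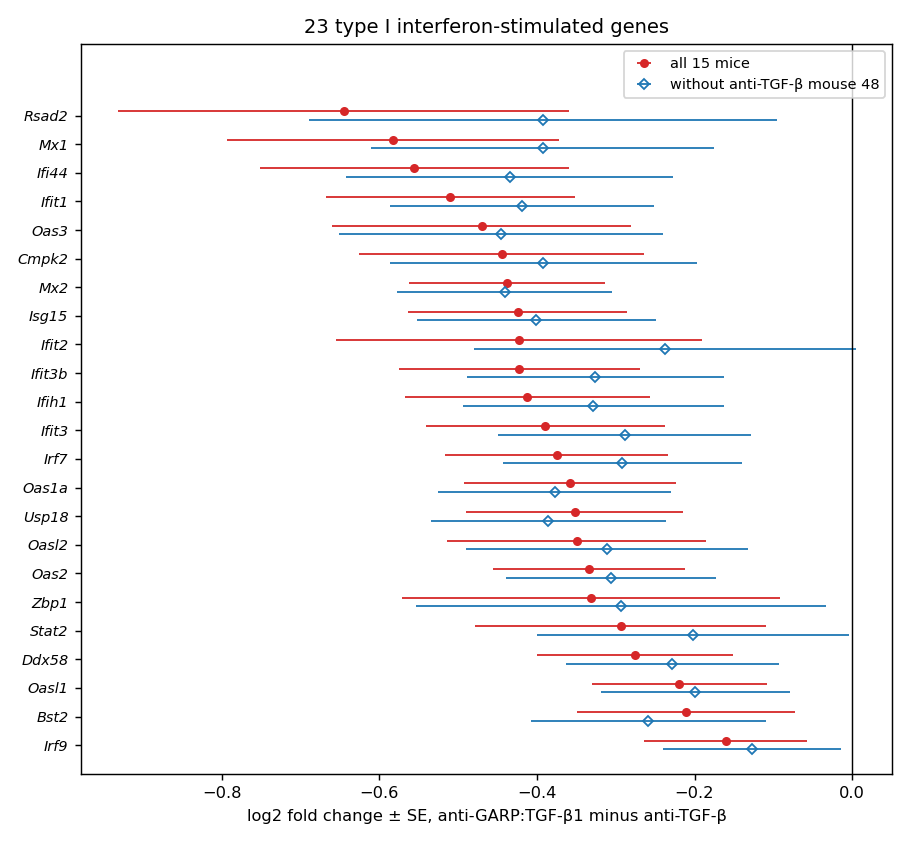
Log2 fold change (x axis) of each of the 23 type I interferon-stimulated genes (y axis), anti-GARP:TGF-β1 minus anti-TGF-β, with its SE, from all 15 mice (filled circles) and without mouse 48 (open diamonds). All circles and diamonds lie left of 0.

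In 3 of the 5 anti-TGF-β tumors most ISGs lay above every anti-GARP:TGF-β1 tumor. Mouse 72 lay above all 10 anti-GARP:TGF-β1 mice in 22 of the 23 genes, mouse 79 in 21 and mouse 48 in 19. Mouse 43 did so in 2 and mouse 59 in 0. Over all genes tested, the shares above all 10 were 7.87% for mouse 72, 11.1% for mouse 79, 28.3% for mouse 48, 6.37% for mouse 43 and 8.75% for mouse 59. The summed level of the list was 2240, 3062, 1965, 3265 and 3233 CPM in the anti-TGF-β mice and 1625 to 2450 CPM (median 2257) in the anti-GARP:TGF-β1 mice. Within libraries 41 to 60 the median difference of the list was -0.15, and within libraries 61 to 80 it was -0.63. The second part holds only 2 anti-TGF-β mice, and both were high. With the library part as a covariate the median of the list was -0.40.

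**Figure D2:**
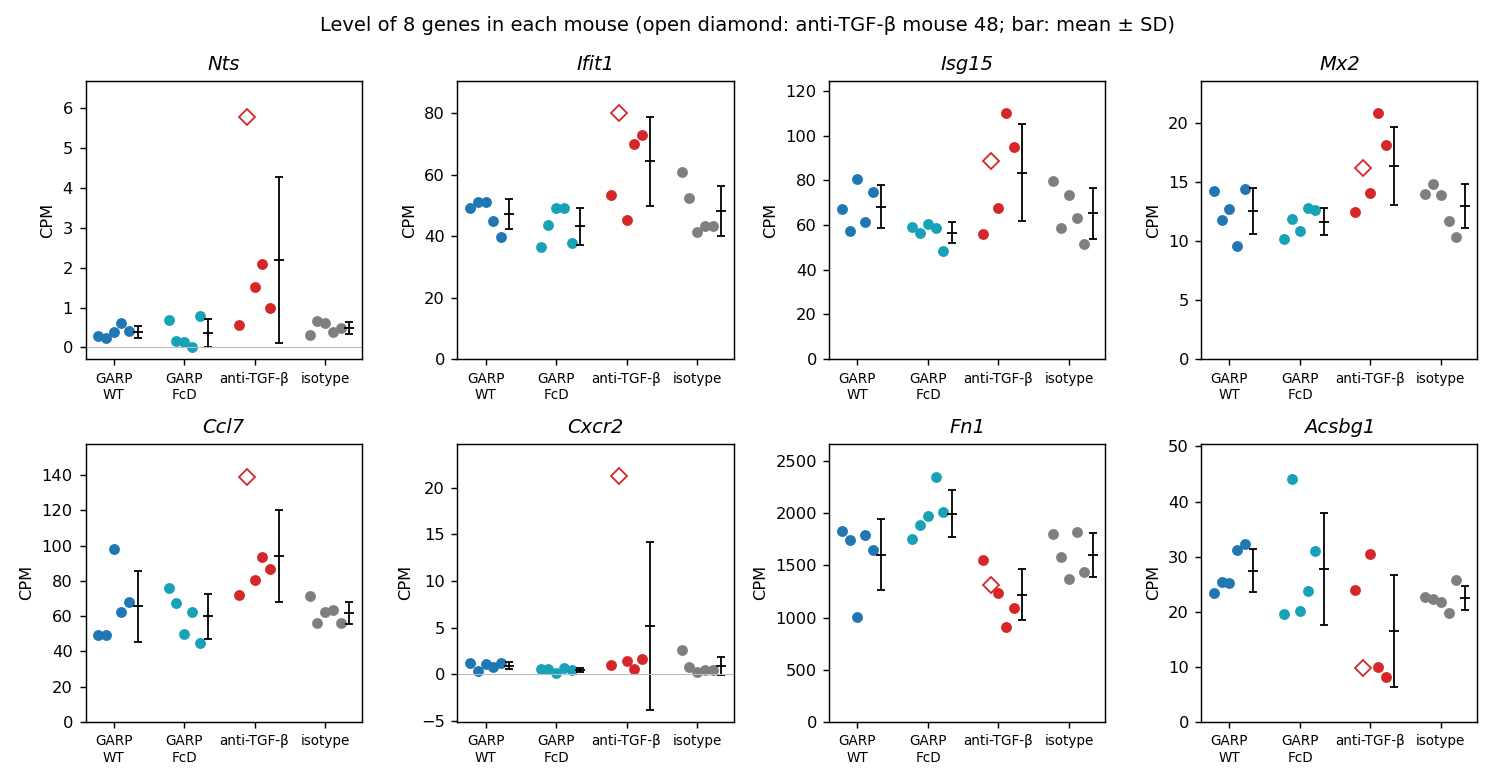
Level (CPM, y axis) of 8 genes in each mouse of 4 groups (x axis), with the mean ± SD at the right of each group, where a bar can reach below 0. The open diamond is anti-TGF-β mouse 48, which holds the highest value of Nts, Ifit1, Ccl7 and Cxcr2, while Fn1 and Acsbg1 are lower in most anti-TGF-β mice.

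Genes more closely tied to interferon γ were examined next. Guanylate-binding proteins and immunity-related GTPases, which attack vacuoles of intracellular microbes, had 17 lower estimates of 17, 0 at p under 0.05 and a median of -0.37 that shrank to -0.08 without mouse 48. In 16 of these genes mouse 48 lay above all anti-GARP:TGF-β1 mice, mouse 79 did so in 3 and the other 3 mice in 0, against 28.3%, 11.1% and 6.37% to 8.75% of all genes. Gbp10 had the smallest p of that list (-0.62 ± 0.40). The interferon γ signaling core had 0 of 12 genes at p under 0.05 (median -0.19, and -0.03 without mouse 48). Ifng itself was 2.04, 3.12, 1.14, 1.55 and 1.04 CPM with anti-TGF-β and 0.199 to 1.79 CPM (median 1.30) with anti-GARP:TGF-β1 (-0.57 ± 0.41, and -0.27 without mouse 48). Antigen presentation by MHC class I and class II had 0 of 17 and 0 of 12 genes at p under 0.05, with medians of -0.08 and -0.03. Leaving out mouse 48 gave medians of -0.03 and 0.36, so that of class II turned in sign. The class I median was 0.09 within libraries 41 to 60 and -0.30 within libraries 61 to 80, and the class II median was 0.45 and -0.63, so both turned in sign between the parts. Those of the GTPases were -0.05 and -0.65 in the same order of parts, and those of the interferon γ core -0.09 and -0.41.

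**Figure D3:**
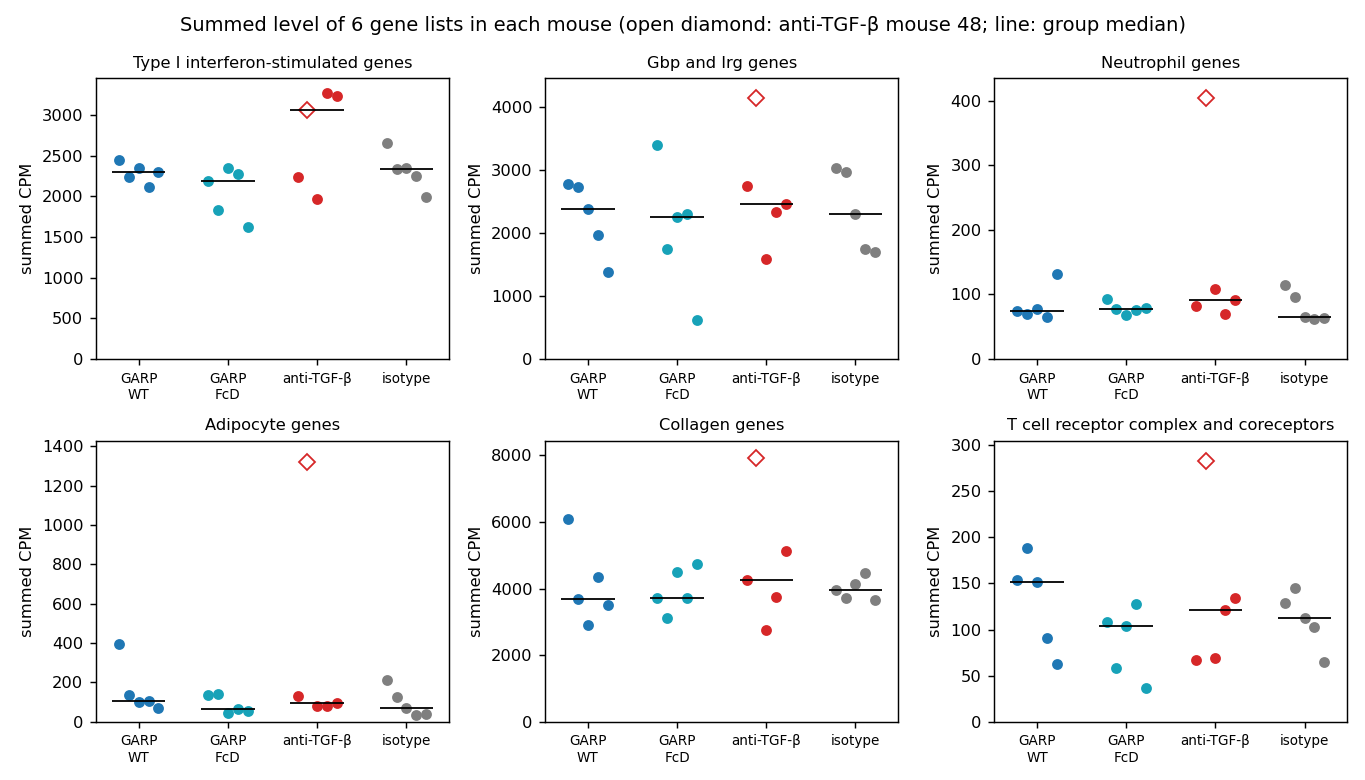
Summed level (CPM, y axis) of 6 gene lists in each mouse of 4 groups (x axis), with a line at each group's median. Mouse 48 (open diamond) is the highest tumor for 5 of the lists, and for interferon-stimulated genes mice 72 and 79 stand beside it.

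Chemokines were lower with anti-GARP:TGF-β1 in several lists. Ccl7, which draws monocytes, stood at 72.1, 139, 80.5, 93.7 and 86.5 CPM with anti-TGF-β and at 44.8 to 98.2 CPM (median 62.2) with anti-GARP:TGF-β1. The isotype tumors, at 55.9 to 71.2 CPM, lay below all 5 anti-TGF-β tumors. The difference was -0.59 ± 0.16 (adjusted p = 0.959) and -0.41 without mouse 48. In the list of monocyte chemokines, receptors and monocyte markers, 10 of 10 estimates were lower, 4 at p under 0.05 (median -0.48), and 2 without mouse 48 (median -0.26). The other genes at p under 0.05 were Plac8, Chil3 and Ly6c2, markers of inflammatory monocytes and their progeny, at -0.32, -1.21 and -0.63. As tumor pieces were measured in bulk, fewer cells of a type and less RNA per cell cannot be told apart.

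The chemokines Cxcl10 and Cxcl11, which draw activated T cells through Cxcr3, differed by -0.61 ± 0.20 and -0.75 ± 0.27. Cxcl10 stood at 126, 151, 71.5, 127 and 128 CPM with anti-TGF-β, and at 55.5 to 113 CPM (median 78.7) with anti-GARP:TGF-β1. All anti-TGF-β mice but mouse 59 lay above all 10 others. Without mouse 48 the differences were -0.52 and -0.66. Cxcl9, another ligand of the same receptor that interferon γ induces, differed by -0.52 ± 0.33. Of 12 lymphoid and dendritic cell chemokines, 4 were lower at p under 0.05 (median -0.59), and 2 without mouse 48 (median -0.19), against 2.76% and 0.927% of all genes. The stromal chemokine Cxcl12 had 122 CPM in mouse 48 and 14.2 to 24.0 CPM in the other anti-TGF-β mice, within the 11.3 to 31.4 CPM of the anti-GARP:TGF-β1 mice.

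Neutrophil genes were highest in mouse 48. Of 10 genes tested, 6 were lower at p under 0.05 (median -0.92), and without mouse 48 0 were (median -0.41). Cxcr2, the receptor that guides neutrophils, stood at 0.979, 21.2, 1.44, 0.539 and 1.59 CPM with anti-TGF-β and at 0.142 to 1.25 CPM (median 0.648) with anti-GARP:TGF-β1. Its difference was -2.91 ± 0.65 with mouse 48 and -0.75 without it, where p was above 0.05. S100a9 and S100a8, the chains of calprotectin, had 120 and 40.7 CPM in mouse 48 and at most 14.7 and 5.24 CPM in the other anti-TGF-β mice. The attracting chemokines Cxcl5 and Ppbp differed by -1.70 and -1.64 and by -0.06 and -1.17 without mouse 48. In that list 3 of 6 genes were lower and then 0, and the median moved from -1.39 to -0.17. The summed level of the neutrophil genes was 405 CPM in mouse 48, 70.2 to 109 CPM in the other anti-TGF-β mice and 65.7 to 131 CPM in the anti-GARP:TGF-β1 mice. Of IL-1 and IL-6 family cytokines, 5 of 16 were lower at p under 0.05, among them Il18 and Il1f9 (-0.61 and -2.20), and 0 without mouse 48 (median -0.43, then -0.06). Defb52, a β-defensin at 0 to 3.04 CPM, differed by -1.77.

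Genes of Tregs, which are among the cells that carry GARP, had 0 of 19 members at p under 0.05. Their median was -0.23 and 0.09 without mouse 48. Foxp3, the factor that defines Tregs, stood at 0.979, 3.12, 1.37, 0.943 and 1.53 CPM with anti-TGF-β and at 0.212 to 3.74 CPM (median 1.21) with anti-GARP:TGF-β1, so the groups overlapped. The difference was -0.31 ± 0.40, and its sign turned without mouse 48 (0.08).

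T cell receptor and coreceptor genes had 0 of 18 at p under 0.05 with a median of -0.39, which was 0.12 without mouse 48. It was 0.20 within libraries 41 to 60 and -0.74 within libraries 61 to 80. Cd8a, a coreceptor of cytotoxic T cells, and Cd3e, a chain of the receptor complex, differed by -0.40 ± 0.55 and -0.30 ± 0.48, and both turned in sign without mouse 48 (0.08 and 0.11). Of 16 granzymes, perforin and effector cytokines, 1 was lower at p under 0.05, Tnfsf10, the death ligand TRAIL (-0.65 ± 0.25). Without mouse 48 it differed by -0.37, with p above 0.05. The median of this list was -0.28, and -0.23 without mouse 48. Gzmb, the main granzyme of killer cells, was 45.1, 88.9, 72.5, 74.3 and 51.0 CPM with anti-TGF-β and 19.8 to 73.2 CPM (median 52.6) with anti-GARP:TGF-β1 (-0.33 ± 0.34, and -0.20 without mouse 48). Prf1, the pore protein perforin, and Tnf differed by -0.16 and -0.32, and turned in sign without mouse 59 (0.0032) and without mouse 48 (0.14). Of 12 NK cell genes, 1 was lower, Klrb1c, which encodes the receptor NK1.1 in some strains (-0.69), and 0 without mouse 48. The medians of the NK cell list were 0.05 within libraries 41 to 60 and -0.71 within libraries 61 to 80, and those of the dendritic cell list 0.05 and -0.38. Among 16 B and plasma cell, 12 dendritic cell, 6 Fcγ receptor and 12 exhaustion receptor genes, 0 were at p under 0.05. Their medians were -0.25, -0.33, -0.26 and -0.34, and 0.92, 0.07, 0.04 and 0.09 without mouse 48, all turned in sign. Among 6 T helper, 11 T cell residency, 17 complement and 19 TNF and NF-κB feedback genes, 0, 1, 1 and 2 were lower and 0 higher at p under 0.05, and without mouse 48 0 were lower and 1 T helper gene was higher. Of 19 macrophage genes, 1 was lower, Vsig4, a complement receptor (-1.88, and -0.50 without mouse 48, then with p above 0.05). The macrophage median turned from -0.22 to 0.11 without mouse 48.

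Genes of myofibroblasts and matrix, which TGF-β induces in wounds and tumors, gave medians of -0.71 for 21 myofibroblast genes, -0.24 for 30 collagens and -0.48 for 28 other matrix genes. Without mouse 48 the medians were 0.02, 0.06 and 0.16. At p under 0.05 each list had 3 lower and 1 higher gene. Without mouse 48 0 genes were lower, and 1 myofibroblast, 1 collagen and 0 other matrix genes were higher. The summed level of the myofibroblast list went the other way from its median. It had a group median of 3197 CPM with anti-GARP:TGF-β1 and 2474 CPM with anti-TGF-β, with 2868 CPM in mouse 48. This sum includes Fn1, described below. Col1a1, a chain of type I collagen, stood at 327, 1181, 247, 383 and 529 CPM with anti-TGF-β and at 235 to 721 CPM (median 316) with anti-GARP:TGF-β1. Apart from mouse 48 these ranges overlapped, and the difference moved from -0.56 to -0.04. Col3a1, of type III collagen, moved from -0.72 to -0.02 in the same way. Acta2 and Tagln, contractile proteins of smooth muscle and myofibroblasts, stood at 45.0 and 18.1 CPM in mouse 48 and at no more than 14.1 and 6.96 CPM in the other 14 mice. Postn, a matricellular protein, turned from -0.98 to 0.61 without mouse 48. Fap and Cthrc1, fibroblast genes at p under 0.05 (-0.99 and -1.51), differed by -0.07 and -0.19 without it. Of 14 metalloproteinases and inhibitors, 3 were lower, Mmp9 among them (-0.41), and 0 without mouse 48.

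Markers of fat and blood were highest in the same mouse, while by summed level those of skeletal muscle, skin and pericytes were not. The 11 adipocyte genes summed to 1321 CPM in mouse 48, 80.7 to 133 CPM in the other anti-TGF-β mice and 43.0 to 394 CPM in the anti-GARP:TGF-β1 mice, of which mouse 42 of the WT group was the highest. Fabp4, the fatty acid carrier of fat cells, was 68.3, 618, 49.7, 49.4 and 44.5 CPM with anti-TGF-β and 29.4 to 134 CPM (median 56.6) with anti-GARP:TGF-β1. It was far above all others only in mouse 48, and its difference turned from -1.43 to 0.22. The median of the adipocyte list moved from -1.71 to 0.39. Erythroid genes summed to 582 CPM in mouse 48 and to at most 286 CPM elsewhere, and their median moved from -1.03 to 0.21. Genes of endothelium, pericytes, skeletal muscle, skin, mast cells and nerve gave medians of -0.23, 0.06, -0.58, 0.13, -0.36 and -0.21, with 2, 0, 0, 0, 1 and 0 genes lower at p under 0.05 and 0 higher. Without mouse 48 these medians were 0.17, 0.43, -0.12, -0.11, -0.16 and -0.07, so those of endothelium and skin turned in sign, 0 genes were lower and 1 pericyte gene was higher. By summed level mouse 48 was also the highest of the 15 for endothelium, mast cells and nerve. Skeletal muscle genes were highest in mouse 42 (19.5 CPM, against 13.0 in mouse 48), skin genes in mouse 61 (12.9 against 5.30) and pericyte genes in mouse 75 (288 against 255). By mean log2 CPM the pericyte genes were highest in mouse 48 (3.68, against 3.65 in mouse 75). The part of surrounding tissue in the other differences was not tested.

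**Figure D4:**
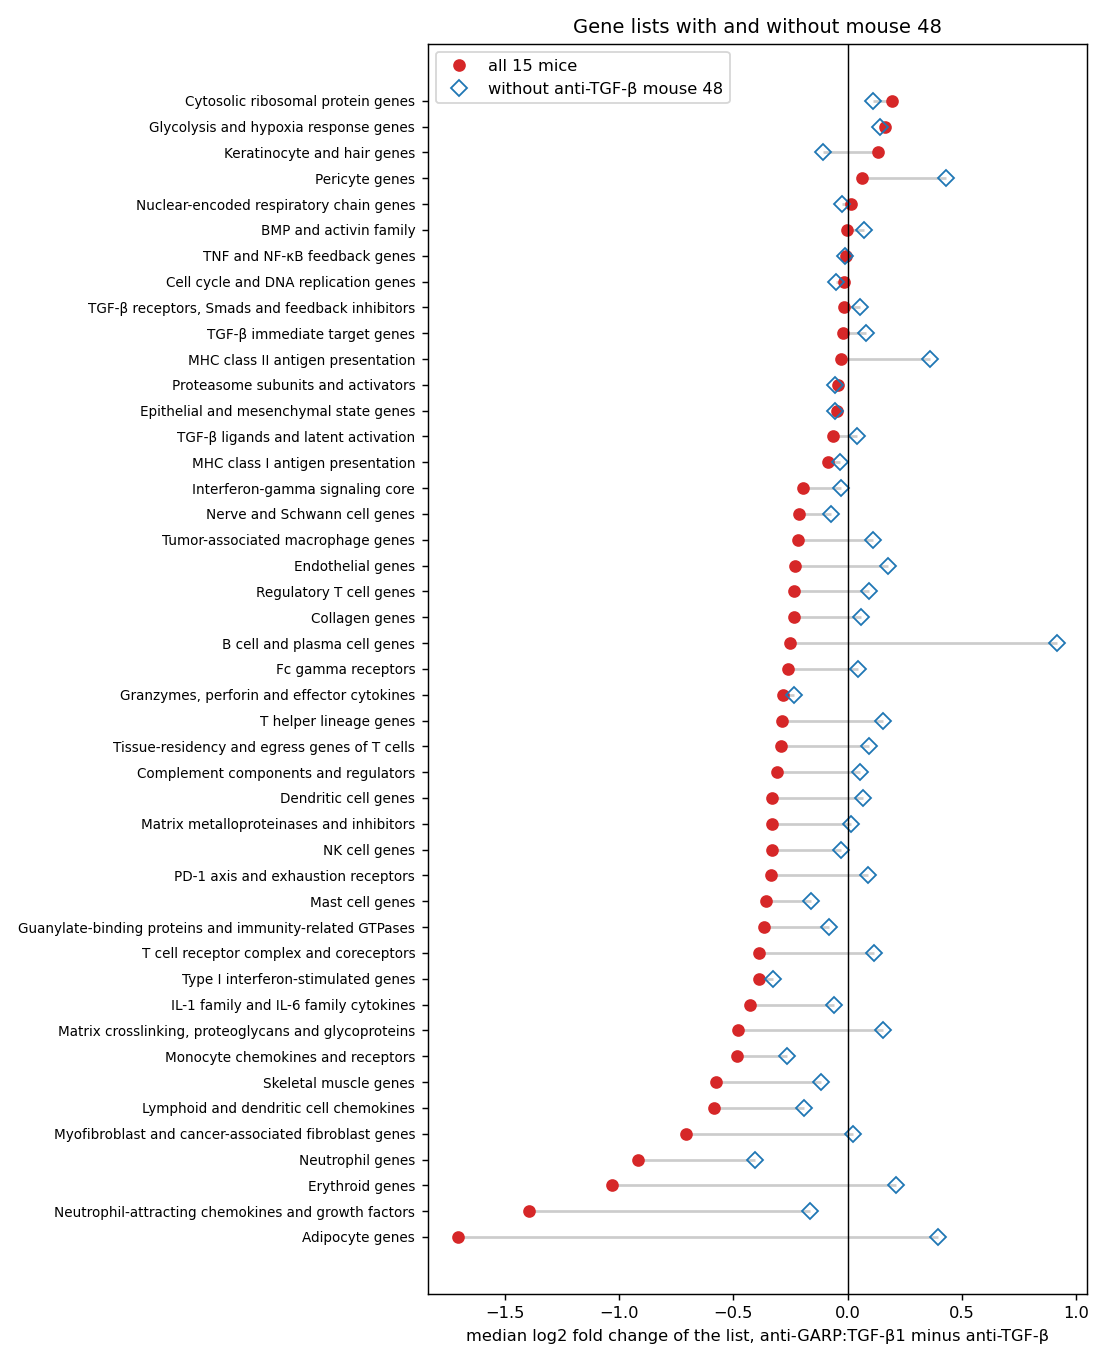
Median log2 fold change (x axis), anti-GARP:TGF-β1 minus anti-TGF-β, of 45 gene lists (y axis) from all 15 mice (filled circles) and without mouse 48 (open diamonds). The adipocyte list moves from -1.71 to 0.39, while the interferon-stimulated list moves from -0.39 to -0.33.

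Among the genes higher with anti-GARP:TGF-β1, Fn1, the matrix protein fibronectin and a classical target of TGF-β, stood at 1554, 1309, 1236, 908 and 1090 CPM with anti-TGF-β. With anti-GARP:TGF-β1 it ran from 1001 over 1812 to 2353 CPM, and only mouse 56 of the 10 lay within the anti-TGF-β range. The difference was 0.55 ± 0.18 (adjusted p = 0.959) and 0.58 without mouse 48. The isotype tumors, at 1366 to 1821 CPM, lay within the anti-GARP:TGF-β1 range, and anti-TGF-β minus isotype was -0.39. Within libraries 41 to 60 the difference of Fn1 was 0.24, and within libraries 61 to 80 it was 0.97.

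Acsbg1, an enzyme that activates long-chain fatty acids, stood at 24.0, 9.75, 30.5, 9.90 and 8.21 CPM with anti-TGF-β and at 19.6 to 44.0 CPM (median 25.2) with anti-GARP:TGF-β1. Mice 48, 72 and 79 lay below all 10 others, while mice 43 and 59 lay among them. The difference was 0.75 ± 0.23, and 0.61 without mouse 48. It was 0.45 within libraries 41 to 60 and 1.58 within libraries 61 to 80. Zfp395, a zinc finger protein, Cdh13, the adhesion receptor T-cadherin, and Wwox, a tumor suppressor oxidoreductase, had the smallest p values together with Crebl2 and Acsbg1 among the higher genes. Their differences were 0.26, 0.35, 0.31, 0.29 and 0.75 in the order Zfp395, Cdh13, Wwox, Crebl2 and Acsbg1. All were also at p under 0.05 without mouse 48. The other higher genes of the rule were Ptpdc1, Osbpl2, Hspb6 and Smg6, at 0.30, 0.24, 0.43 and 0.20. Mical2, an actin oxidase, differed by 0.37 ± 0.13, with 0.11 and 0.71 within the 2 library parts.

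In the ribosomal protein and glycolysis lists most estimates were higher with anti-GARP:TGF-β1, without a gene at p under 0.05. Of 84 cytosolic ribosomal protein genes, 80 had higher estimates (against 44.6% of all genes), with a median of 0.19 (0.11 without mouse 48). Of 21 glycolysis and hypoxia genes, 18 had higher estimates (median 0.16, and 0.14 without mouse 48). Members of such lists move together, so these shares are not independent evidence. Respiratory chain, proteasome and cell cycle lists had medians of 0.02, -0.04 and -0.01 (-0.02, -0.06 and -0.05 without mouse 48). In these 3 lists 2 of 80, 1 of 41 and 1 of 28 genes were lower at p under 0.05 and 0 higher. They were Cox8b and Ndufb2 of the respiratory chain (-2.56 and -0.32), the proteasome activator subunit Psme3 (-0.13) and the cell cycle inhibitor Cdkn2a (-0.91). Leaving out mouse 48 kept Ndufb2 and Psme3 at p under 0.05 and added Ndufa4l2 (0.84), a higher gene of the respiratory list. Mki67, the proliferation marker, differed by 0.05 ± 0.12. Of 17 epithelial and mesenchymal genes, 1 was higher, Vim (0.22, and 0.16 without mouse 48, then with p above 0.05).

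Lists of human genes that a cytokine induces in cultured cells, given by the study and matched by symbol, were also counted. These counts stand against 2.76% lower and 1.57% higher among all genes, and 0.927% and 0.806% without mouse 48. Of 206 interferon γ genes tested, 27 were lower and 2 higher at p under 0.05 (median -0.18, and -0.04 without mouse 48). For 277 TNFα genes the numbers were 35 and 4 (median -0.16, then 0.04), and for 268 IL-1β genes 32 and 3 (median -0.13, then 0.02). Without mouse 48, 9, 9 and 11 genes were lower and 0, 2 and 1 higher. Of 113 TGF-β1 genes, 3 were lower and 4 higher (median -0.08, then 0.07 with 0 lower and 3 higher), and of 40 TGF-β1 genes of CD4 T cells, 1 was lower (median -0.08, then 0.02 with 0 lower). The interferon γ, TNFα and IL-1β lists share genes, among them Ifit1 and Mx2.

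Both forms of anti-GARP:TGF-β1 were also set against the same 5 anti-TGF-β mice, which both comparisons therefore share. The forms were split unequally over the library parts. WT mice 42, 49 and 56 and FcD mice 41 and 58 lie in the first part, and the other mice of both forms in the second. Mouse 48 was not left out in these comparisons. With WT, 165 genes (1.12%) were higher and 177 (1.20%) lower at p under 0.05, and with FcD 235 (1.59%) were higher and 429 (2.91%) lower. At an adjusted p, edgeR and DESeq2 called 0 genes in each, and DESeq2 gave 487 and 881 genes at p under 0.05. The ISG median was -0.29 with WT, where 6 of 23 genes were lower, and -0.45 with FcD, where 16 were. For Isg15 the difference was -0.29 with WT and -0.56 with FcD. WT minus FcD for Isg15 was 0.27 ± 0.16, with p above 0.05, so a difference between the forms was not shown. Over all genes, WT minus FcD gave 207 genes (1.40%) at p under 0.05 and 0 at an adjusted p by either tool (313 in DESeq2 without adjustment), and 0 of the ISGs were among the former. Nts was lower with both forms, by -2.48 and -2.55.

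Against the isotype control, which both comparisons share, few genes passed the unadjusted threshold. Anti-GARP:TGF-β1 had 67 higher (0.454%) and 36 lower genes (0.244%) at p under 0.05, and anti-TGF-β had 261 higher (1.77%) and 81 lower (0.549%). At an adjusted p, 0 genes passed in edgeR in each, and DESeq2 called 1 gene in each, with 191 and 530 genes at p under 0.05. The ISG median was -0.10 with anti-GARP:TGF-β1, with 0 genes at p under 0.05, and 0.30 with anti-TGF-β, with 4 of 23 higher. Without mouse 48 the latter was 0.23, with 1 of 23 higher. Ifit1, Isg15 and Mx2 differed from the isotype by 0.42, 0.36 and 0.34 with anti-TGF-β (0.33, 0.33 and 0.34 without mouse 48, then at p under 0.05 for Mx2 alone) and by -0.09, -0.07 and -0.10 with anti-GARP:TGF-β1. Ccl7 differed by 0.61 with anti-TGF-β, by 0.43 without mouse 48, and by 0.02 with anti-GARP:TGF-β1. Lists with larger medians than the ISGs with anti-TGF-β included erythroid (1.92), neutrophil (0.87) and B cell genes (2.11). In these, 7 of 7, 5 of 10 and 4 of 16 genes were higher at p under 0.05 and 0 lower. With anti-GARP:TGF-β1, 4 of 16 B cell genes were also higher and 0 lower (median 1.55). These lists are not given against the isotype without mouse 48. The 19 Treg genes had medians of 0.14 with anti-TGF-β, where 2 were higher at p under 0.05, and -0.02 with anti-GARP:TGF-β1, where 1 was. Foxp3 among them differed by 1.25 and 0.94. Without mouse 48 the anti-TGF-β values were -0.0020 for the list, with 0 genes higher, and 0.86 for Foxp3, with p above 0.05. Without mouse 48, anti-TGF-β minus isotype gave 76 higher and 51 lower genes. Without mouse 59 the numbers were 473 and 245, and without isotype mouse 74 they were 148 and 70.

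The same contrast in mice that also received anti-PD-1, 15 other tumors, called many genes. There 1898 genes (12.9%) were higher and 1926 (13.0%) lower with anti-GARP:TGF-β1 at an adjusted p of 0.05 in edgeR, and 4184 genes in all with DESeq2. The total of 3824 in edgeR moved with single mice of the anti-TGF-β + anti-PD-1 group. It was 0 without mouse 62, 1106 without mouse 68, 2089 without mouse 57 and 6036 without mouse 53. Without mouse 62 the smallest adjusted p in edgeR was 0.0611, and 4296 genes were at p under 0.05, against 5965 with all mice. Of the ISGs, 4 of 23 were lower at an adjusted p, Isg15 among them (-0.57, adjusted p = 0.00850), and the list's median was -0.10. Fn1 was higher in both settings, by 0.55 without and 0.60 with anti-PD-1 (adjusted p = 0.0153 in the latter), as was Acsbg1 (0.75 and 0.60, adjusted p = 0.0484). Cxcl10 was lower in both (-0.61 and -0.52, adjusted p = 0.0491). Itgav and Skil, which differed by -0.06 and -0.05 without anti-PD-1, were higher by 0.50 and 0.57 with it (adjusted p = 0.0112 and 0.0131). Mki67 was higher by 0.35 (adjusted p = 0.0306), the 1 higher gene among the 28 of the cell cycle list, in which 9 were lower and the median was -0.13. Of 80 respiratory chain genes 60 were lower at an adjusted p, and of 41 proteasome genes 29 were lower and 2 higher, against medians near 0 without anti-PD-1.

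**Figure D5:**
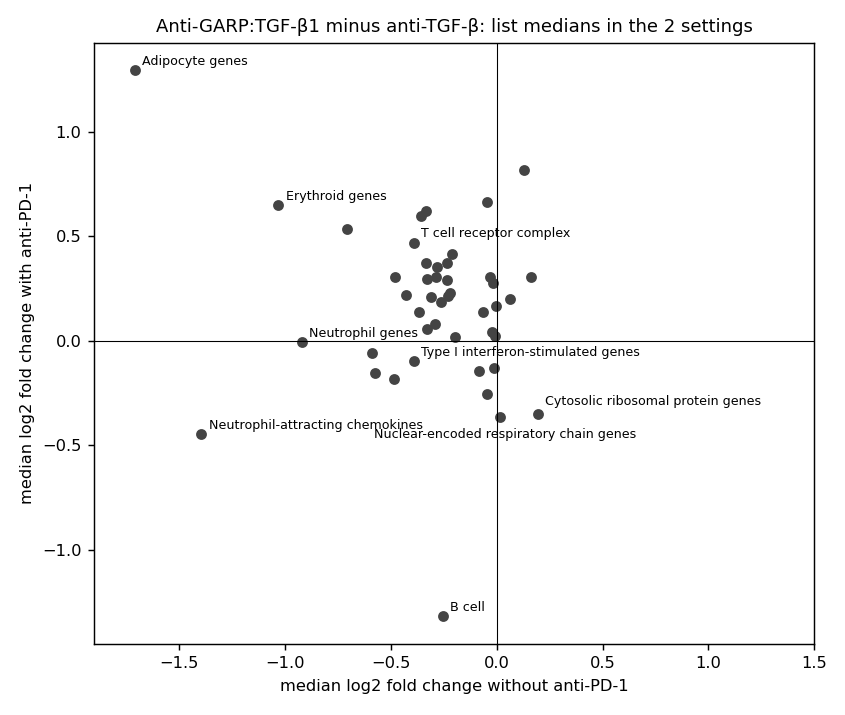
Median log2 fold change of 45 gene lists, anti-GARP:TGF-β1 minus anti-TGF-β, without anti-PD-1 (x axis) and with anti-PD-1 (y axis), each point 1 list. The adipocyte list lies at -1.71 and 1.30, and the interferon-stimulated list at -0.39 and -0.10. The x values include mouse 48, and without it those of these lists are 0.39 and -0.33.

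The difference between the contrasts without and with anti-PD-1 was tested as an interaction. Mouse 48 was included, and the interaction was not fitted without it. At p under 0.05 it gave 4868 genes (33.0%), at an adjusted p edgeR called 0, and DESeq2 called 7, with 5483 at p under 0.05. For Nts the contrast was -2.52 without and -0.25 with anti-PD-1, and the interaction was -2.27 ± 0.72 (adjusted p = 0.0896). Nts stood at 1.15 ± 0.79 CPM (SD, n = 10) with anti-GARP:TGF-β1 + anti-PD-1 and at 1.37 ± 0.54 CPM (SD, n = 5) with anti-TGF-β + anti-PD-1, against 0.373 ± 0.257 CPM (SD, n = 10) with anti-GARP:TGF-β1 alone. For Fn1 and Isg15 the interactions were -0.05 ± 0.24 and 0.15 ± 0.20 (adjusted p = 0.903 and 0.608).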

How the data were processed

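RNA of 40 CT26 tumors (8 groups of 5 mice) was measured as stranded, paired-end mRNA libraries. The authors aligned reads to GRCm38 with STAR 2.5.3a, processed them with SAMtools 1.6 and counted them per gene with HTSeq 0.9.1, and deposited raw counts of 54087 genes without normalization. The strand setting and annotation release were not given in the sources used here, so reads of overlapping genes may be shared. In the table, 27 names had been turned into calendar dates, and 0 columns were left out.

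Groups were taken from the labels. Genes were filtered with filterByExpr (14760 kept) and TMM-normalized in edgeR 4.0.16 (R 4.3.3, limma 3.58.1), and all 8 groups were fitted in 1 robust quasi-likelihood model. The contrast was the mean of both anti-GARP:TGF-β1 groups minus anti-TGF-β, 2-sided, with Benjamini-Hochberg adjustment over all genes tested. SE was derived from the estimate and its F statistic (estimate over root F). CPM use TMM-scaled library sizes, and log2 CPM a prior count of 2. Counts per kilobase use the union of exons in GENCODE vM21 (GRCm38). Counting error limits genes of few reads, and the number of mice limits the rest.

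Genes were named by a rule: a list of TGF-β, T cell and stromal genes, the 10 higher and 10 lower genes with the smallest p whose symbol is not a clone or model name, and up to 4 members with the smallest p of each list. Other genes named are said to be chosen after their values were seen. The members, lists and tests were chosen with earlier results of these data known, so no list count is independent evidence. Single-gene p-values without adjustment are given only as passing or missing the threshold of 0.05. Alternatives were DESeq2 1.42.0 (size factors, Wald test), no filter on low counts, only the 15 mice, both forms as 1 group, the library number or part (41 to 60, 61 to 80) as a covariate, fits within parts and each mouse left out. Fits within parts, and leaving out mice in the comparisons with isotype and with anti-PD-1, were chosen after seeing the data. The model was also run on simulated counts, which held no tumor like that of mouse 48 and no difference between library parts. That run therefore cannot show how the model behaves with them. Tables were computed in Python 3.11.15 with numpy 2.4.6, scipy 1.17.1 and pandas 2.3.3. Tumor growth, RT-qPCR and flow cytometry were not analysed here, and a few genes of the rule are not reported here.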

Additional observations from a re-analysis of the deposited data

Results flagged for a closer look

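Among 246 groups of 5 values, 1 mouse stood far from the other 4 in 19 by Dixon's criterion on the log2 scale, where chance flags about 1 in 20 groups. In the anti-TGF-β group, mouse 48 was the highest for Tagln at 18.1 CPM, Cxcr2 at 21.2, Gdf10 at 6.16, Fabp4 at 618 and Cxcl12 at 122 CPM, and the lowest for Wwox at 12 CPM. Mouse 59 of the same group was the lowest for Cxcl10 at 71.5 CPM. In the WT group, mouse 56 was the lowest for Fn1 at 1001 CPM and for Pmepa1 at 18 CPM and the highest for Ctgf at 63.8 CPM. Mouse 73 was the highest for Tgfb1 at 109 CPM and the lowest for Ifng at 0.751 CPM, and mouse 65 the lowest for RP24-298J16.4 at 6.96 CPM. In the FcD group, mouse 75 was the lowest for Prf1 at 11.8 CPM and for Tnfsf10 at 6.57 CPM. Mouse 58 was the lowest for Wwox at 12.9 CPM and the highest for Osbpl2 at 89.9 CPM. Mouse 61 was the lowest for Cxcr2 at 0.142 CPM, and mouse 41 the lowest for Tgif1 at 74.5 CPM.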

How the results depend on the processing

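The count of 0 genes at an adjusted p held under the other scaling, filter, covariate and pooling choices and with each mouse left out, and was 1 with DESeq2 (Nts) and 1 within libraries 61 to 80 (Acsbg1). DESeq2 also called 1 gene for anti-GARP:TGF-β1 minus isotype, 1 for anti-TGF-β minus isotype and 7 for the interaction. The 639 genes at p under 0.05 became 1379 without a filter and 209 within libraries 41 to 60. With mice left out they ran from 258 (without mouse 48) to 1273 (without mouse 59), and were 433 without mouse 73. With anti-PD-1, the 3824 genes called ran from 0 (without mouse 62) to 6036 (without mouse 53).

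Of 1953 alternative values for 82 genes, 1917 kept their direction and call, 22 turned in sign, 1 passed the threshold and 13 moved by more than the spread between mice. The last were all differences within a library part, of Cdh13, Fn1, Fbn2, Smg6, Cxcr2, Tgif1, Mical2 and Mmp9. With mice left out, the ranges of log2 fold change that crossed 0 were -0.031 to 0.14 for Tgfb1, -0.69 to 0.042 for Lrrc32, -0.61 to 0.080 for Foxp3, -0.18 to 0.099 for Skil, -0.25 to 0.15 for Pmepa1, -0.22 to 0.10 for Tgfbi, -0.47 to 0.14 for Tnf, -0.28 to 0.0032 for Prf1, -0.61 to 0.081 for Cd8a, -0.48 to 0.11 for Cd3e, -0.76 to 0.13 for Acta2, -1.41 to 0.61 for Postn and -1.67 to 0.22 for Fabp4. Without mouse 48 the medians of the neutrophil-attracting chemokine and adipocyte lists were -0.17 and 0.39, against -1.39 and -1.71, and without mouse 61 that of the keratinocyte list was -0.70, against 0.13. No paired analysis was possible because replicate numbers were given in accession order and pair no mice.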
